A study of Mus musculus with 80 samples.

Results

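Carboxylesterases are serine hydrolases that cleave ester and amide bonds, and most of the hepatic ones are held in the lumen of the endoplasmic reticulum. They hydrolyse ester-containing drugs as well as cholesteryl esters and acylglycerols, so they stand where xenobiotic and lipid metabolism meet in the hepatocyte. In the mouse the family has expanded by tandem duplication into clusters on chromosome 8. The genes described here are 10 carboxylesterases found in the deposited count table by symbol, namely Ces1b, Ces1c, Ces1d, Ces1e, Ces1f, Ces1g, Ces2a, Ces2c, Ces2e and Ces3a. They make up 10 of the 78275 gene rows and 180 of the 470140 exon bins, and all 10 passed the filter on low counts. On GRCm38 the 6 Ces1 members lie on the minus strand of chromosome 8 between 93056728 (Ces1b) and 93337308 (Ces1g), and Ces2a, Ces2c, Ces2e and Ces3a on the plus strand between 104734003 and 105058413. Ces1c was included for a strong fasted-against-control change in an exon bin, so every fasted-against-control value of Ces1c is given as a description with no test, and the tests of fasting cover the other 9.

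The libraries were poly(A)-selected, strand-specific RNA-seq of the left liver lobe of male and female C57BL/6J mice, 8 to 12 weeks old at purchase and kept on chow. The mice were held for 10 days in a light-dark cycle and then in constant darkness, and 1 liver per mouse was taken every 4 h from circadian time 8 (CT8) to CT44. Control mice ate ad libitum throughout. Fasted mice had no food after CT10, so that the CT8 mice of the fasted series had still been fed and CT44 came 34 h after food removal. Each treatment and time had 2 males and 2 females, giving 40 control and 40 fasted livers, grouped by the titles of the samples.

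The depth ran from 25534901 to 59927771 gene counts, the median library holding 42303883. The library of control CT8 female 2 stood apart, because the ribosomal gene row Rn18s-rs5 took 31.3% of its counts against a median of 0.101%. In 80 of 80 libraries the sex-specific transcripts matched the titled sex. Hepatocyte markers, 8 genes led by Alb, summed to between 71428 and 122959 CPM (counts scaled to a common library size) in control livers and between 79898 and 131981 in fasted livers, so the tissue carried the defining markers of liver.

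Members of 1 subfamily are near relatives. Coding sequences of the Ces1 members were between 72% and 88.7% identical in 15 pairs, the highest being Ces1b with Ces1c, and those of the Ces2 members between 82.4% and 83.6%. Of all stretches of 76 bases in the longest coding transcript, 24.91% were shared with another gene for Ces2c, mostly the pseudogene Ces2d-ps, 17.81% for Ces3a, all with Ces3b, 5.82% for Ces1c and 4.34% for Ces1b. Values of these members are uncertain to the extent that reads were split between such copies. Ces1d, Ces1f, Ces1g and Ces2a shared no such stretch.

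The promoters of Ces1b and Ces1c are shown because their letters are close while, as given later, the mean level over the fast was higher for Ces1b and lower for Ces1c, the latter not tested. The 250 bases before 1 RefSeq start site of each gene, on GRCm38.p6 and the minus strand, lie at chr8:93079941-93080190 for Ces1b and chr8:93131284-93131533 for Ces1c. These windows were 76.2% identical. Capitals mark TTATGTAA and a CCAAT motif read on the other strand. The Ces1b window overlaps exon 1 of its longest coding transcript, chr8:93079865-93080017. Its CCAAT letters lie inside that exon, and its TTATGTAA lies across the exon's start. Another RefSeq window of Ces1b, chr8:93080018-93080267, held none of the motifs searched.
Ces1b: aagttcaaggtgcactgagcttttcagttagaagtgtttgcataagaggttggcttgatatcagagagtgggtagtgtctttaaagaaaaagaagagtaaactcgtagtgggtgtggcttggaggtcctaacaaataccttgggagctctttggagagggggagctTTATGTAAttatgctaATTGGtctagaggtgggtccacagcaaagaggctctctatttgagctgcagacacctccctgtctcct
Ces1c: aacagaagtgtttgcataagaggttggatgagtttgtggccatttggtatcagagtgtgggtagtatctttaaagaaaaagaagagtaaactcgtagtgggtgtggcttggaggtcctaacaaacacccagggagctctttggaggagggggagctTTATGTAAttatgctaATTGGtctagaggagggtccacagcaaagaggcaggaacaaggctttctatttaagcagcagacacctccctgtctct
The RefSeq table held 8 promoters of 7 members. TTATGTAA, letters picked after these sequences had been read, occurred on either strand in 4 of these 8 (Ces1b, Ces1c, Ces1e and Ces1g) and in 0.819% of all 32851 promoters. CCAAT occurred in 5 of the 8 and in 33.8% of all, TATAAA in 1 and in 12.4%, and TTCNNNGAA in 0 of the 8 and in 7.02%. These are matches of letters only.

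In control livers the members differed widely in level. Per kilobase of the longest coding transcript, Ces1c, which encodes the carboxylesterase that mouse liver secretes into plasma, stood highest at 1358 ± 349 CPM per kb (SD, n = 40). Ces3a followed with 776 ± 352 CPM per kb, then Ces1d, the triacylglycerol hydrolase of the liver, with 401 ± 136. Ces1f reached 190 ± 33.2, Ces2a 148 ± 38.7, Ces1g 106 ± 34.5 and Ces1e 76.4 ± 21.6 CPM per kb. Ces2e (67.1 ± 16.7), Ces1b (46.5 ± 12.0) and Ces2c (15.3 ± 9.34) closed the order, and no neighbouring pair had ranges that lay apart. All 10 together took 0.649% ± 0.0481 (SD, n = 36) of all gene counts in control livers of CT12 to CT44 and 0.463% ± 0.123 in fasted livers of the same times.

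Most of the members were lower in fasted livers. Over the mean of CT12 to CT44, 7 of the 9 tested members fell and 1, Ces1b, rose at an adjusted p under 0.05 (edgeR quasi-likelihood test, adjusted over 21187 genes). Of all genes tested, 62.5% were called in this comparison, 29.5% higher and 32.9% lower, so that being called was common. The median log2 change of the 9 was −0.53 against −0.02 over all genes. In whole tissue, fewer cells of a type and less RNA per cell cannot be told apart. Kupffer cell markers fell in 3 of 4 genes (median sum 269 CPM in control and 198 in fasted livers), cholangiocyte markers in 3 of 4 and stellate markers in 3 of 4, while 5 of 8 hepatocyte markers rose and 1 fell. Adipocyte markers, of which 2 of 4 were tested, summed to a median of 1.34 CPM in control and 62.9 in fasted livers, carried by Cidec. Endothelial markers rose in 1 and fell in 2 of 4 genes, intestinal markers rose in 2 and fell in 1 of 3 tested (median sum 51.8 and 114 CPM), and pancreatic acinar markers fell in 1 of 3 tested (9.92 and 4.26 CPM). The part of these shifts in the members' changes was not tested.

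Among the Ces1 members, which include the lipid hydrolases of the family, direction was mixed. Ces1g, an enzyme linked to the storage and secretion of triacylglycerol, ranged from 121 to 411 CPM in control livers (median 245, n = 36) and from 45.6 to 404 in fasted livers (median 152). It fell by 0.71 on the log2 scale (SE 0.107, adjusted p = 1.27e-07, edgeR). Ces1f, a lipid hydrolase related to Ces1d, had a median of 353 CPM in control livers (265 to 482) and 270 in fasted livers (22.4 to 483). It fell by 0.53 (SE 0.113, adjusted p = 7.43e-05), and the fasted livers spanned a wider range than the controls. In males alone its log2 change was −0.18 and the call was lost (adjusted p = 0.0574, edgeR). Ces1e, known as egasyn, which anchors beta-glucuronidase in the endoplasmic reticulum, had medians of 151 CPM (84.4 to 242) and 117 CPM (37.7 to 222) and fell by 0.39 (SE 0.081, adjusted p = 5.46e-05). Its partner Gusb moved the other way by a small amount, a log2 change of 0.13 (adjusted p = 5.09e-05).

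Ces1b rose. Its levels ran from 54.3 to 142 CPM in control livers (median 93.3) and from 73.7 to 158 in fasted livers (median 113), a log2 change of 0.34 (SE 0.048, adjusted p = 4.23e-08), with broad overlap between the groups. Ces1d had a median of 851 CPM in control (390 to 1308) and 853 in fasted livers (160 to 1818). Its log2 change of −0.02 (SE 0.101, adjusted p = 0.892) did not pass the test, and its direction turned in males alone (0.14). Ces1c, the neighbour of Ces1b, ranged from 1574 to 3549 CPM in control livers (median 2494) and from 1003 to 3475 in fasted livers (median 1858), a log2 difference of −0.38 given with no test. The summed counts of the 6 Ces1 members differed by −0.30, a description only, since Ces1c has the most counts among them.

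The Ces2 members, enzymes that favour esters with a small acyl group and also cleave acylglycerols, and Ces3a were all lower. Ces2a had a median of 279 CPM in control livers (166 to 390, n = 36) and 200 in fasted livers (94.0 to 430) and fell by 0.43 (SE 0.062, adjusted p = 5.33e-08, edgeR). Ces2e had medians of 196 CPM (102 to 257) and 110 CPM (42.6 to 220) and fell by 0.71 (SE 0.086, adjusted p = 7.13e-10). Ces2c, the scarcest member, had medians of 27.5 CPM (3.37 to 71.6) and 12.7 CPM (2.87 to 62.2) and fell by 1.21 (SE 0.161, adjusted p = 1.05e-08), with some of its reads shared with a pseudogene. The 3 summed gave a log2 change of −0.57 (SE 0.052). Ces3a had medians of 1507 CPM (624 to 2827) and 857 CPM (163 to 2159) and fell by 0.84 (SE 0.058, adjusted p = 3.99e-17). Ranges of control and fasted livers overlapped for every one of these genes, since both sexes and all times were pooled in them.

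**Figure D1:**
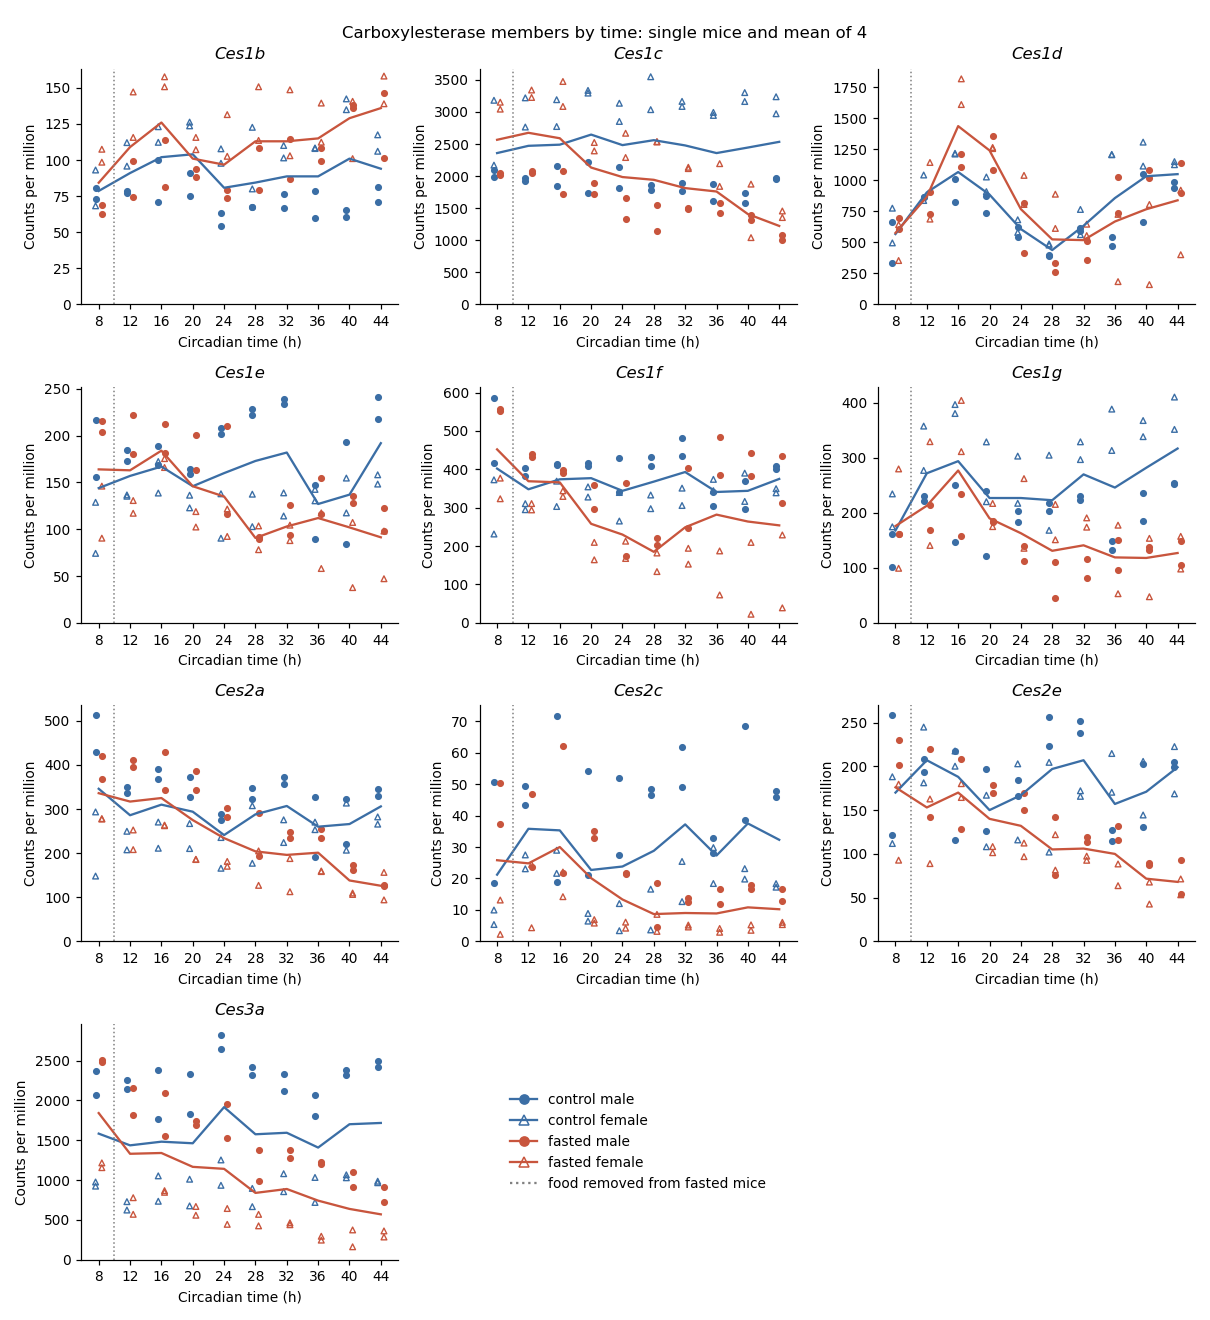
Level of each of the 10 members in CPM (vertical axis, each panel with its own scale) against circadian time in hours, with 1 point per liver (circles for males, triangles for females), lines through the means of control and fasted livers (n = 4 per treatment and time) and a dotted line at food removal. Control and fasted points of most panels mix until about CT20, and by CT44 the fasted points of Ces1c, Ces1e, Ces1g, Ces2a, Ces2c, Ces2e and Ces3a lie below all control points.

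The difference built up with time. At CT8, before food was removed, 0 of the 9 tested members were called by edgeR (1.33% of all genes called), and likewise 0 at CT12 (1.6%), CT16 (23.4%) and CT20 (36.6%), the last pair being times at which many other genes already differed. DESeq2 and limma-voom also called 0 at each of these 4 times, and an unadjusted p under 0.05 was reached in edgeR by 0 members at CT8 and CT12, by Ces1b at CT16 and by Ces3a at CT20. Ces3a was the 1 member called at CT24 (24.1%, 11.9% lower), where control livers measured 934.4, 1253, 2827 and 2651 CPM and fasted livers 444.5, 643.3, 1525 and 1950 CPM, females first. Each fasted liver of a sex was below both controls of that sex, and Ces3a fell by 0.83 (SE 0.173, adjusted p = 2.6e-04, edgeR). At CT28, 18 h without food, 7 members were lower and Ces1b higher (21.0% of all genes called, 9.88% higher and 11.1% lower). At CT32, 6 were lower (17.7% called, 9.3% lower). At CT36, 3 were lower and Ces1b higher (26.8%, 12.8% higher and 14% lower), and at CT40 5 were lower and Ces1b higher (39.9%, 18.7% higher and 21.2% lower). At CT44, 6 were lower and Ces1b higher (39.4%, 18.7% higher and 20.7% lower). The median log2 change of the 9 went from −0.06 at CT12 to −0.86 at CT28, −0.52 at CT36 and −1.27 at CT44.

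Over CT12 to CT44 there were 32 calls by edgeR of 81 tests of a member at a time. Among all genes the share called at a time ran from 1.6% at CT12 to 39.9% at CT40. Ces3a was called at 6 times, Ces1g and Ces2c at 5, Ces2a, Ces2e and Ces1b at 4, Ces1e at 3, Ces1f at 1 and Ces1d at 0. Fewer calls were made without male replicate 1 and without male replicate 2, fits that leave 1 male per group. Leaving out either female replicate, which leaves 1 female per group, did not give fewer calls, and the cause was not tested. The single edgeR call of Ces1f came at CT28. There its fasted livers measured 182.0, 133.6, 221.2 and 203.8 CPM, females first, and the controls 297.5, 333.1, 433.3 and 408.4 CPM. Ces1f was called at CT44 too by limma-voom (−0.999, adjusted p = 0.0265), and by edgeR without female replicate 2 (−1.62, adjusted p = 1.53e-06) and without the low-count filter. Ces2c reached its lowest value at CT32, with control livers at 12.63, 25.41, 61.68 and 49.16 CPM and fasted livers at 4.551, 5.174, 13.70 and 12.56 CPM. There it fell by 2.02 on the log2 scale. Ces1d, in contrast, stood at 1265, 1256, 1359 and 1083 CPM in fasted livers of CT20 against 909.1, 1027, 733.2 and 870.9 CPM in controls. This difference of 0.49 did not pass the edgeR test (adjusted p = 0.212).

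**Figure D2:**
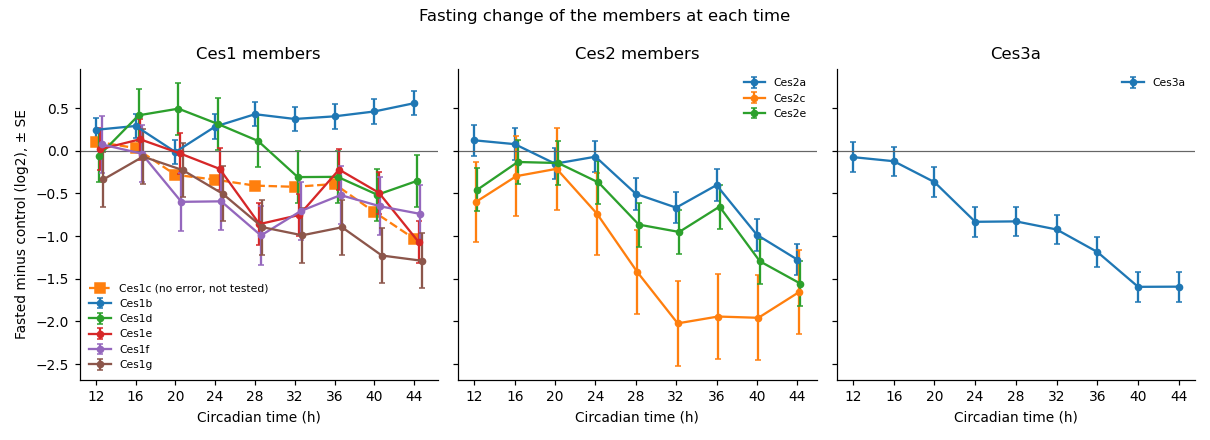
Log2 change, fasted minus control, against circadian time in hours from CT12, with panels for the Ces1 members, the Ces2 members and Ces3a, 1 line per gene and error bars of 1 SE. Ces1c is dashed and has no error bars because it was not tested. Values up to CT20 stay between −0.60 (Ces2c at CT12) and 0.49 (Ces1d at CT20), and all but Ces1b, which ends at 0.56, are below 0 at CT44.

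At CT44 the separation was clearest. The 4 fasted livers measured 156.3, 93.98, 127.9 and 124.9 CPM of Ces2a, females first, and the controls 282.2, 265.8, 345.7 and 329.3 CPM. Ces2a fell by 1.27 (SE 0.187, adjusted p = 4e-07, edgeR). Ces2e measured 53.18, 71.28, 92.69 and 54.53 CPM against 222.6, 168.6, 198.9 and 205.5 CPM and fell by 1.56 (SE 0.262, adjusted p = 5.13e-06). Neither gene had any fasted liver within the control range. Ces3a measured 285.7, 361.8, 909.2 and 722.5 CPM against 986.0, 966.6, 2496 and 2420 CPM and fell by 1.59 (SE 0.176, adjusted p = 7.71e-10). Here the fasted males came close to the control females, so the sexes have to be read apart. Ces2c fell by 1.66 (adjusted p = 0.006), from 17.22, 18.35, 45.84 and 47.71 CPM in controls to 6.037, 5.309, 16.67 and 12.82 CPM.

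Ces1g measured 97.88, 157.3, 148.2 and 105.9 CPM in the fasted livers of CT44, females first, against 351.8, 410.6, 252.7 and 254.7 CPM in controls and fell by 1.29 (SE 0.324, adjusted p = 0.0013, edgeR). Ces1e measured 47.14, 98.11, 122.3 and 98.17 CPM against 158.2, 148.3, 218.0 and 241.8 CPM and fell by 1.07 (SE 0.246, adjusted p = 4.72e-04). Both genes, too, had all fasted livers below all controls. Ces1b measured 158.2, 139.0, 101.7 and 146.5 CPM against 106.1, 117.5, 71.19 and 81.10 CPM and rose by 0.56 (adjusted p = 0.0017), each fasted liver standing above both controls of its sex. Ces1c measured 1456, 1354, 1003 and 1079 CPM against 2972, 3237, 1952 and 1977 CPM, a difference of −1.03 given with no test. Of all genes, 16.2% had every fasted liver below every control at CT44. Without male replicate 2, which leaves 1 male per group, the calls at CT44 were lost for Ces1b (0.459), Ces1g (−1.176) and Ces2c (−1.557). Leaving out any other single replicate lost no call at CT44. The share of all gene counts taken by the 10 members was then 0.324% ± 0.0518 (SD, n = 4) in fasted livers and 0.696% ± 0.012 in controls.

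Comparing the fasting effect at CT36, CT40 and CT44 with that at CT12, CT16 and CT20 sets the same clock phases a day apart. The effect was lower in the later set for 7 of the 9 tested members, where 21.2% of all genes were called and 11.3% were lower. The median difference of the 9 was −0.90 against −0.02 over all genes. Ces2c (−1.48, SE 0.392, adjusted p = 0.00504, edgeR), Ces3a (−1.27, SE 0.141, adjusted p = 7.14e-09), Ces2e (−0.93, SE 0.209, adjusted p = 0.00113) and Ces2a (−0.90, SE 0.151, adjusted p = 2.1e-05) moved with Ces1g, Ces1d and Ces1e, whose differences were −0.93, −0.67 and −0.63. Ces1f (−0.45, adjusted p = 0.26) and Ces1b (0.30, adjusted p = 0.0618) did not pass in edgeR. The value of Ces1b lay close to the threshold: it was called higher by DESeq2 (0.32, adjusted p = 0.037), with the size factors of DESeq2, without the low-count filter, without female replicate 2, without control CT8 female 2 and in males alone (0.64, adjusted p = 0.0104), while in females alone it was at −0.03. Ces1f was called without female replicate 1 (−0.90, adjusted p = 4.29e-04) and without the low-count filter. Only Ces2a, Ces2e and Ces3a kept their call when either male replicate was left out, which leaves 1 male per group. No such call was lost when either female replicate was left out, which leaves 1 female per group. Without male replicate 1, Ces1d was at −0.713, Ces1e at −0.781, Ces1g at −0.92 and Ces2c at −1.411. Without male replicate 2, the same genes were at −0.634, −0.439, −0.983 and −1.609. In males alone Ces1d was at 0.11 and Ces1f at 0.29, in the opposite direction. The untested value of Ces1c was −0.67.

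A few female livers of the late fast carried very low levels. Fasted CT40 female 2 was the lowest of its 4 livers for 9 of the 10 members, fasted CT36 female 2 for 7 and fasted CT44 female 1 for 6. The share of all genes for which each liver was the lowest was not counted, so these counts have no background. Of the members so counted, Ces1e, Ces2c and Ces3a were also lower in female control livers, and Ces1b, Ces1c, Ces1d and Ces1g were higher. Ces1f stood at 22.39, 72.73 and 39.07 CPM in these 3 livers and Ces1d at 159.6, 183.6 and 400.5 CPM. These are values of single mice, and the library of fasted CT40 female 2 was also among the shallowest, with a total of 26820667 counts. Ces1f was also the only member whose fasting effect differed between the sexes, being more negative in females by 0.70 on the log2 scale (SE 0.226, adjusted p = 0.0353, edgeR), where 12.4% of all genes were called, 7.02% in this direction. Without male replicate 1 and without male replicate 2, which leave 1 male per group, the call was lost, at −0.582 and −0.755. The call held without female replicate 2, a fit that keeps fasted CT44 female 1. The part of the 3 low livers in this difference was not tested.

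The relatives and functional neighbours of the members moved in several directions. Over the mean of CT12 to CT44, 62.5% of all genes were called, 29.5% higher and 32.9% lower, so being called was common. Of 6 further carboxylesterase genes tested, 5 fell over the mean of CT12 to CT44 and 0 rose, with Ces2b at −3.70, Ces4a at −1.33, Ces3b at −0.92, Ces2h at −0.89 and Ces2g at −0.72, while Ces1a, at 0.26, did not pass. Of 15 other neutral lipid hydrolases and their cofactors, 6 rose and 5 fell. Pnpla2, adipose triglyceride lipase, rose by 2.02 (SE 0.067, adjusted p = 1.41e-28, edgeR), and Mgll, monoacylglycerol lipase, by 0.72. Pnpla3, a lipid droplet hydrolase, fell by 4.37 (SE 0.235, adjusted p = 6.73e-21), Aadac, arylacetamide deacetylase, by 0.58 and Lipc, hepatic lipase, by 0.46. Of 8 xenobiotic receptors and targets, 6 rose, among them Cyp2b10 at 1.92, Por at 1.67, Nr1i3 (CAR) at 0.84 and Nr1i2 (PXR) at 0.53, and 2 fell, Cyp2c29 at −0.90 and Gstm1 at −0.57.

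In control livers the members differed strongly between the sexes. Of the 10, 4 were higher in females and 4 lower at an adjusted p under 0.05 (edgeR), where 39.2% of all genes were called, 20.6% higher and 18.6% lower. Ces1c was at 3068 ± 288 CPM in females and 1897 ± 173 in males (SD, n = 20 each), a log2 difference of 0.69 (SE 0.053, adjusted p = 6.64e-15). Ces1g was at 308 ± 72.5 and 197 ± 47.1 CPM (0.64, adjusted p = 3.17e-04), and Ces1b at 110 ± 17.6 and 72.9 ± 10.7 CPM (0.58, adjusted p = 4.16e-10). Ces1d was at 909 ± 287 and 699 ± 219 CPM (0.37, adjusted p = 0.0272). This call was lost without male replicate 1 (0.356) or male replicate 2 (0.4), fits that leave 1 male per group. It held without either female replicate, fits that leave 1 female per group. All 4 female-high members belonged to the Ces1 subfamily, whose 6 members summed gave 0.49 (SE 0.067).

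Male-high members came from all subfamilies. Ces3a was at 2264 ± 270 CPM in males, from 1762 to 2827, and at 911 ± 169 in females, from 624 to 1253 (SD, n = 20 each), a female-minus-male difference of −1.32 (SE 0.078, adjusted p = 9.31e-19, edgeR). It was the only member whose sexes did not overlap in any pair of the 40 control livers, which 1.1% of all genes did. Ces2c was at 43.8 ± 15.3 CPM in males and 16.6 ± 8.48 in females (−1.54, SE 0.214, adjusted p = 1.08e-07). Ces1e (−0.49, adjusted p = 3.27e-04) and Ces2a (−0.47, adjusted p = 8.36e-06) were also lower in females, and without male replicate 2 the call of Ces1e was lost. Ces1f (−0.29, adjusted p = 0.123) and Ces2e (−0.08, adjusted p = 0.627) did not pass. Kupffer cell markers were higher in females in 4 of 4 genes and endothelial markers in 4 of 4, and their part in the sex differences was not tested.

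**Figure D3:**
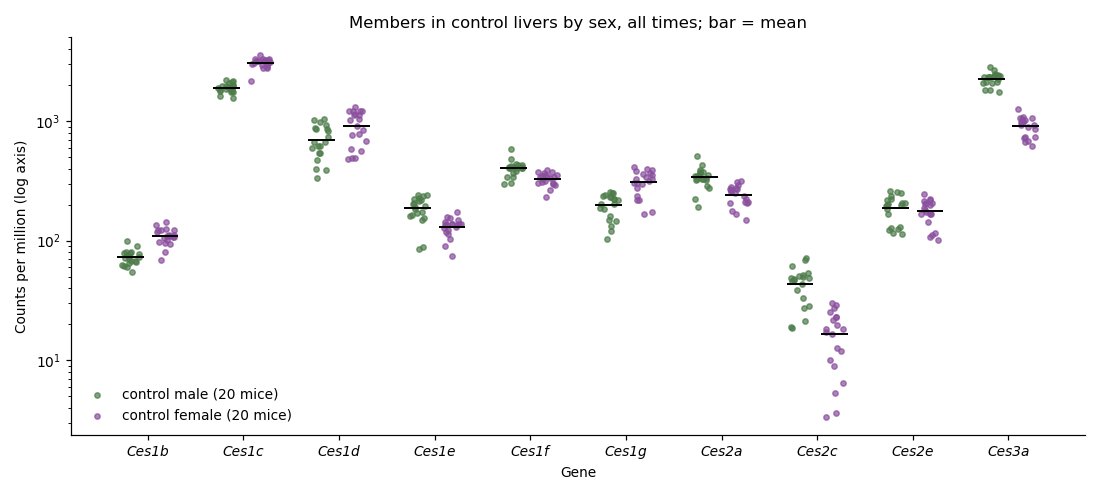
Level of each member in the 40 control livers in CPM on a log axis, males and females side by side, with 1 point per liver (n = 20 per sex) and a bar at the mean. The 2 clouds of Ces3a lie apart, males from 1762 to 2827 CPM and females from 624 to 1253, whereas those of Ces2e coincide.

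A 24 h rhythm was detected in 2 of the 10 members in control livers, against 45.4% of 18242 genes tested. Ces1d had a peak-to-trough log2 range of 1.19 with its peak at CT16.3 (adjusted p = 3.33e-09, edgeR). Its control means were 1067 ± 187 CPM at CT16 (SD, n = 4), 438 ± 51.8 at CT28 and 1050 ± 105 at CT44. Ces1b had a smaller range of 0.30 with its peak at CT16.8 (adjusted p = 0.0199), and this call was lost without female replicate 1, in males alone and with time as a factor (adjusted p = 0.185). Ces2c (adjusted p = 0.0862), Ces1g (0.107) and Ces3a (0.141) did not pass in edgeR, but Ces2c and Ces1g were called in females alone and without male replicate 1, and Ces1g was called in place of Ces1b with time as a factor (adjusted p = 0.0315). Among the 9 tested members, 0 differed in rhythm between fasted and control livers by edgeR, where 24% of 19194 genes were called, and 0 reached an unadjusted p under 0.05. DESeq2 and limma-voom also called 0, with 1 member, Ces2c, at an unadjusted p under 0.05 in each. Without female replicate 2, edgeR called Ces1e (adjusted p = 0.0209) and Ces1f (0.0477). Ces1d kept a range of 1.21 in fasted livers, with its peak at CT18.0 (adjusted p of the difference = 0.396).

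Exon usage was read from bins, the smallest pieces into which annotated exons of a gene are split, numbered along the chromosome, so that bin 1 lies at the 3′ end of the minus-strand Ces1 genes. A relative change is the log2 change of a bin minus that of its gene. Of the 9 tested members, 4 changed exon usage under fasting (Ces3a, Ces2a, Ces2e and Ces1d), where 14.3% of 13889 genes and 2.08% of all 233672 bins were called (0.859% lower). Ces3a (adjusted p per gene = 3.56e-46, edgeR diffSpliceDGE) and Ces2a (4.05e-19) held under every alternative except that a minimum of 10 counts in every library removed the bins of Ces3a. Ces2e (0.00775) and Ces1d (0.0116) lost the call when any replicate was left out.

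The changed bins lay mostly within an intron of a coding transcript. Among the 9 members, 20 bins lay within such an intron, and they are called intron bins below. Bin 17 of Ces1e, bin 10 of Ces2a, bin 14 of Ces2e and bins 12 and 13 of Ces3a are among them. These are exons of the longest coding transcript that 1 other coding transcript splices out. Bin 17 of Ces2a is an exon of another coding transcript, Ces2a-202, that 2 coding transcripts splice out. The remaining ones are exons of retained-intron or other transcripts not annotated as protein-coding. Of the 19 intron bins that were tested, 6 were lower and 0 higher, with relative changes from −1.50 to 0.08 and a median of −0.20. Of 138 tested bins elsewhere, out of 142, 2 were lower and 0 higher, with a median of 0.00. The called bins were bins 16, 5 and 10 of Ces3a (−1.37, −1.21 and −1.50), bins 17 and 20 of Ces2a (−0.85 and −0.70), bins 20 and 8 of Ces1d (−0.58 and −0.47) and bin 14 of Ces2e (−0.44). In Ces1c both bins within introns, bins 5 and 11, had relative values of −1.29 and −1.04, while its other 16 bins lay between −0.03 and 0.16, none of them tested. In Ces1b, Ces1e, Ces1f, Ces1g and Ces2c no bin was called, the bins of smallest p being bin 5 (0.07), bin 7 (−0.20), bin 8 (−0.22), bin 2 (−0.04) and bin 10 (−0.70).

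**Figure D4:**
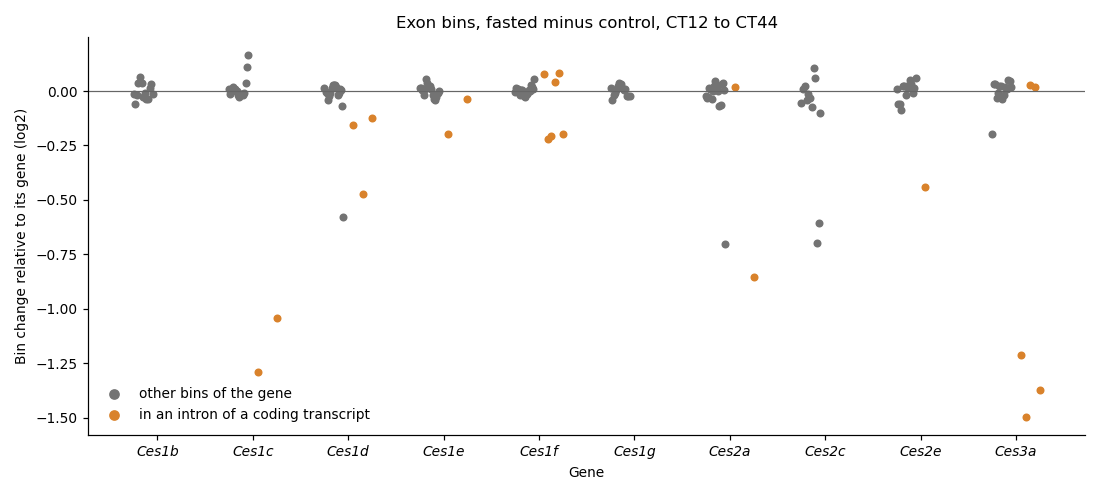
Relative log2 change under fasting of every tested bin (vertical axis) by gene (horizontal axis), with bins within an intron of a coding transcript marked apart from the other bins. Most other bins gather near 0, and the lowest points are intron bins of Ces3a and Ces1c, which was not tested.

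The letters at the start of the largest changes are shown because the annotation joins these bins to an exon in different ways. Reads across the joins were not examined. Each line gives the last 20 bases of the exon before and up to 40 bases of the bin, on the strand of the gene and on GRCm38, with the first 2 bases of the bin in capitals.
Ces1c bin 5: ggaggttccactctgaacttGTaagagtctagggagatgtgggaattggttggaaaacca
Ces3a bin 5: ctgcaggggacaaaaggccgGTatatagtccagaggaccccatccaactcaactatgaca
Ces3a bin 10: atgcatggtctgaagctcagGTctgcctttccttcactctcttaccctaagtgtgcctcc
Ces1c bin 11: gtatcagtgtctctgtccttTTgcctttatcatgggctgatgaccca
Ces3a bin 16: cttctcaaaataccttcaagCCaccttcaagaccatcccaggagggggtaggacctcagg
The first 3, at chr8:93107493-93107552 (minus strand), chr8:105050302-105050361 and chr8:105051817-105051876, are unbroken stretches in which the annotated transcript continues from the exon into the intron, and the bin opens with GT, the letters of a 5′ splice site. Bin 5 of Ces1c (456 bases, chr8:93107077-93107532) is the start of intron 9 in the transcript Ces1c-203, annotated as a retained intron. Bin 5 of Ces3a (160 bases, chr8:105050322-105050481) lies in intron 3, in a retained-intron transcript, and bin 10 (53 bases, chr8:105051837-105051889) in intron 6. Bin 11 of Ces1c (27 bases, chr8:93120612-93120638) in intron 5 and bin 16 of Ces3a (368 bases, chr8:105056639-105057006) in intron 10 are instead joined to a separate exon.

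These bins held a small part of each gene. Bin 5 of Ces1c took from 0.0747% to 0.217% of the bin counts of the gene in control livers of CT12 to CT44 (median 0.133%, n = 36, mean count 324) and from 0.00631% to 0.163% in fasted livers (median 0.0624%, mean count 97.6). Bin 5 of Ces3a took from 0.495% to 1.39% (median 0.786%) and from 0.0242% to 1.0% (median 0.421%), an adjusted p of 2.39e-38 in edgeR. Bin 16 of Ces3a took from 0.41% to 1.85% (median 0.918%) and from 0.0175% to 1.08% (median 0.35%), with an adjusted p of 2.94e-46. Bin 17 of Ces2a (395 bases, intron 11, chr8:104740835-104741229) took from 0.155% to 0.527% (median 0.339%) and from 0.0641% to 0.424% (median 0.181%), with an adjusted p of 2.07e-19. Over all times together, the ranges of control and fasted livers overlapped for each of these 4 bins. Bin 14 of Ces2e (692 bases, chr8:104933755-104934446), within exon 12 of the longest coding transcript and spliced out in 1 coding transcript, took 1.32% ± 0.199 and 0.979% ± 0.3 (SD, n = 36 each, adjusted p = 0.00433 in edgeR). This bin was already lower in the fasted series at CT8, before food removal, at 1.17% ± 0.12 against 1.41% ± 0.13 in controls (SD, n = 4 each). The part of that earlier gap in the difference was not tested.

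The course of the intron bins over time is given as a description, since single times were not tested for bins. At CT16, 6 h after food removal, 8 of the 19 tested intron bins of the 9 members had all 4 fasted shares below all 4 control shares, against 3 of the 138 other bins and 2.28% of all 184383 bins with a mean count of at least 10. At CT20 these were 10 of 19, 7 of 138 and 2.22%. At CT44 they were 4 of 19, 11 of 138 and 2.69%. At CT12, CT24, CT28, CT32, CT36 and CT40, 1, 5, 1, 1, 3 and 1 of the 19 stood apart in this way. Of the 138 other bins, 0, 2, 3, 3, 3 and 2 did so. The share over all bins was not counted at those times, so the tallies over 9 times given below have no such share beside them. The bins and times described next were chosen after their values had been seen. Of the 9 times from CT12 to CT44, the fasted shares lay wholly below the controls at 7 for bin 17 of Ces2a, at 5, 4 and 3 for bins 5, 16 and 10 of Ces3a, at 4 for bin 8 of Ces1d and at 3 for bin 14 of Ces2e.

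Bin 16 of Ces3a at CT16 took 1.168%, 1.371%, 1.216% and 0.9751% of the gene in controls, females first, and 0.166%, 0.1096%, 0.2336% and 0.4358% in fasted livers, with no overlap. The level of Ces3a at that time was 1482 ± 736 CPM in controls and 1340 ± 599 in fasted livers (SD, n = 4), a log2 change of −0.12 (adjusted p = 0.685, edgeR). Bin 5 of Ces3a was at 1.03% and 0.228% on average, and bin 10 at 0.227% and 0.0346%. Bin 17 of Ces2a, at CT20, took 0.3962%, 0.3703%, 0.4029% and 0.3996% in controls and 0.07795%, 0.144%, 0.06405% and 0.1377% in fasted livers, again apart. The level of Ces2a was not called at that time.

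Bin 5 of Ces1c belongs to the values for which the gene was included, so its course supports nothing by itself. At CT20 it took 0.146%, 0.1273%, 0.1108% and 0.1323% of the gene in controls, females first, and 0.009152%, 0.02019%, 0.03966% and 0.0149% in fasted livers. At the same time Ces1c itself stood at 3336, 3294, 2223 and 1736 CPM in controls and 2524, 2393, 1892 and 1723 CPM in fasted livers, which overlapped. The bin was at 0.061% ± 0.0221 (SD, n = 4) in fasted and 0.105% ± 0.0245 in control livers of CT12, with overlapping ranges, and at 0.0377% ± 0.00937 and 0.146% ± 0.019 at CT16, with ranges apart.

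The low share did not last in every gene. At CT32, 22 h after food removal, bin 5 of Ces1c was at 0.124% ± 0.0336 in fasted and 0.121% ± 0.0119 in control livers (SD, n = 4), and bin 16 of Ces3a at 0.603% ± 0.259 and 0.671% ± 0.12, so both means were near those of the controls while 6 of the 9 tested gene levels were called lower. Both bins were low again at CT44, with bin 5 of Ces1c at 0.02605%, 0.04973%, 0.06461% and 0.03091% in fasted livers and 0.1611%, 0.1587%, 0.1343% and 0.1471% in controls. Bin 16 of Ces3a was then at 0.168% ± 0.153 and 1.28% ± 0.389. Bin 17 of Ces2a followed another course, staying low at CT32 (0.214% ± 0.0331 against 0.428% ± 0.0686) and overlapping with controls at CT44 (0.223% ± 0.0736 against 0.264% ± 0.0942). At CT8, before food removal, bin 5 of Ces1c was at 0.144% ± 0.0307 in the fasted series and 0.136% ± 0.0328 in controls.

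**Figure D5:**
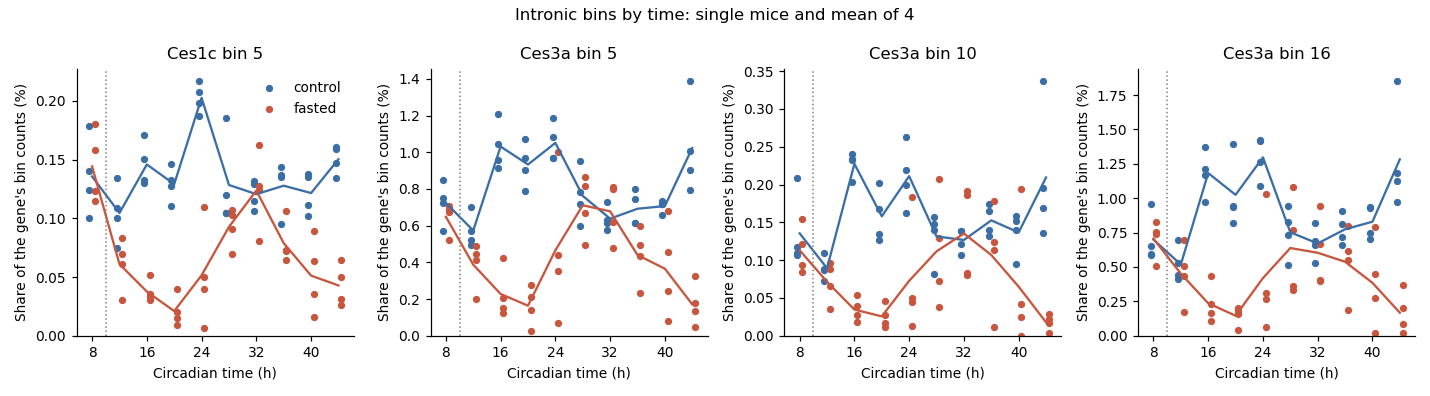
Share of the gene's bin counts, in percent, taken by bin 5 of Ces1c and bins 5, 10 and 16 of Ces3a against circadian time in hours, with 1 point per liver, lines through the means of control and fasted livers (n = 4 per treatment and time) and a dotted line at food removal. In both genes the fasted line falls until CT20, comes back to the control line near CT32 and falls again to CT44.

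Sex did not shift exon usage detectably. In control livers 0 of the 10 members were called by edgeR (1, Ces1c, at an unadjusted p under 0.05) and 0 by limma, against 1.6% of all genes and 0.202% of all bins by edgeR, although 8 of the 10 differed in level. The lowest adjusted p per gene was that of Ces1c (0.257), from bin 18, whose relative female-minus-male value was −0.30 (adjusted p of the bin = 0.139).

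Levels of the members went together over the 20 means of treatment and time, which share libraries and the fasting contrast, so the coefficients are descriptions. Ces1c with Ces2a (Pearson r = 0.963), Ces1g with Ces2c (0.955) and Ces1c with Ces2e (0.933) were the closest pairs, and Ces1b with Ces3a (−0.822) the most opposed. Ces1d ran apart from the rest, its highest coefficient being 0.583 with Ces1g. Among all other genes those most like Ces1c were Scd1, stearoyl-CoA desaturase (0.979), H2-Q10, a secreted class I histocompatibility molecule (0.978), and Prdx4, a peroxiredoxin of the endoplasmic reticulum (0.977).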

How the data were processed

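The authors deposited raw read counts per gene, raw counts per exon bin and normalised counts, with 1 column per mouse. Trimmomatic, HISAT2, DESeq2 and the build GRCm39 are named in the submitters' processing notes, and the counting program was not given in the sources used here. The deposited normalised values (signal) equalled the counts divided by 1 factor per library, with a largest relative deviation of 5.1e-10, and were used only for that check. Exon bin totals ran from 38029120 to 115551162 per library, without 5 rows that name no bin, which were left out. Those 5 rows held from 8.28% to 25.9% of the counts of bins and such rows together.

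Tests were run in R 4.3.3 with edgeR 4.0.16 on raw counts (filterByExpr, TMM scaling, quasi-likelihood fits with 1 mean per treatment, time and sex over 80 libraries, Benjamini-Hochberg adjustment over all genes tested, threshold 0.05). Rhythm was tested with a cosine and sine of 24 h, and exon usage with diffSpliceDGE, using Simes p per gene. CPM used TMM-scaled library sizes. In the exon bin table the fasted CT40 columns were kept as 1 group without sex, since 3 of the 4 matched another library of that group in the gene table. Bins were placed by order and number on GENCODE M21 (GRCm38), which gives the same number of bins for all 10 members, and no position on GRCm39 is printed. Alternatives used DESeq2 1.42.0 and limma 3.58.1. The steps were tested on simulated data. Replicate libraries differed by more than counting noise, so each mouse counted once. Each value rests on 2 mice per sex, treatment and time, and counting error covers only part of the spread. Sample titles gave the groups, because other label fields disagreed with the titles for 40 libraries on sex and 40 on treatment. Members, gene lists and the genes named were chosen with earlier results of these data known. The genes named are the members, lists of other carboxylesterases, neutral lipid hydrolases, xenobiotic genes and cell markers, and the 3 genes most correlated with Ces1c. Bins named are, for each member, that of the smallest p and those called, and further intron bins were chosen after their values were seen. Labels give no extraction or sequencing batch, so no batch could be compared.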

Additional observations from a re-analysis of the deposited data

Results flagged for a closer look

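Of 200 groups of 4 livers (10 members, 2 treatments and 10 times), 5 had 1 liver far from the other 3 by Dixon's criterion, where chance alone gives about 1 in 20. In fasted CT40 female 2, Ces1b was at 101.0 CPM (others 135.9 to 140.7), Ces1d at 159.6 (others 805.3 to 1082) and Ces1g at 47.51 (others 132.0 to 153.7). Control CT12 female 2 had 1043 CPM of Ces1d (others 837.5 to 866.6), and control CT16 male 1 had 115.9 CPM of Ces2e (others 200.2 to 217.6).

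The fasting effect differed between the sexes for Ces1f (female minus male −0.695, adjusted p = 0.0353 in edgeR). It differed between the late and the early fast for Ces1d (−0.674), Ces1e (−0.634), Ces1g (−0.926), Ces2a (−0.904), Ces2c (−1.483), Ces2e (−0.925) and Ces3a (−1.27), each from a test of the difference itself with an adjusted p at or below 0.0457 in edgeR.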

How the results depend on the processing

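The counts of members changed by the mean of fasting (8), differing between control sexes (8) or with sex-dependent exon usage (0) moved by less than 1.5 times under each alternative. The summed Ces2 change kept its sign. So did the summed Ces1 change, a description in which the untested Ces1c has the most counts. Leaving out 1 replicate gave 3 to 8 members with a late-minus-early difference (7 in the full data; 3 also in males alone), 0 to 4 with a sex difference of the fasting effect (1), 0 to 2 with a rhythm difference (0), 15 to 36 calls at single times (32), 1 to 4 control rhythms (2) and 2 to 2 members with changed exon usage (4). Without the low-count filter these were 5 for the sex difference, 4 for the rhythm difference and 50 for single times. Females alone gave 15 calls at single times and 4 control rhythms, males alone 1 control rhythm, and without control CT8 female 2 there were 2 sex differences. Changed exon usage was called for 2 members by an F test per gene, 2 by limma, 2 in males alone without CT40 and 1 with at least 10 counts in every library.

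Directions turned for Ces1d over the mean of fasting (−0.187 to 0.043 over leave-outs, 0.139 in males alone), at CT44 (0.084, males alone) and late minus early (0.105, males alone), for Ces1f (0.285, males alone) and Ces1b (−0.027, females alone) late minus early, for Ces1e in the sex difference of fasting (−0.224 to 0.112 over leave-outs) and for Ces2e between control sexes (−0.224 to 0.011 over leave-outs). The cause was not tested.

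The titles' replicate numbers did not pair the livers: of 20 pairs of same-numbered groups, 1 had deviations correlated above 0.1 (range −0.056 to 0.249). With the replicate block, fasting called 8 members, late minus early 7, single times 32 and exon usage 4, as without it, and Ces2e between control sexes went to 0.023.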

Other observations

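The 5 bins of the members left untested for low counts included a bin of 39 bases annotated as the whole of exon 8 of Ces1b (bin 7, chr8:93067015-93067053 on GRCm38). It held 0.0139% ± 0.0169 of the bin counts of Ces1b in control livers of CT12 to CT44 (SD, n = 36, mean count 1.14, highest 5) and 0.0173% ± 0.0196 in fasted livers. It was chosen after its values were seen.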
